A study of Saccharomyces cerevisiae with 36 samples.

Results

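ACT1, ARP2, COF1, PFY1 and SAC6 are 5 budding yeast genes of the actin cytoskeleton, and their transcripts were followed in 18 strains with a mutation in an RNA-processing or related factor. They were chosen by gene symbol from the annotation of the array, on which they are 5 of 230 genes and hold 19 of 724 named probes. ACT1 (YFL039C) encodes actin, ARP2 (YDL029W) an actin-related subunit of the Arp2/3 complex, COF1 (YLL050C) cofilin, PFY1 (YOR122C) profilin and SAC6 (YDR129C) fimbrin.

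Each array compared total RNA of 1 mutant with that of a wild type in 2 colours, and each mutant had 2 arrays with the channels exchanged. Of the 18 mutants, 16 were deletion strains set against the wild type BY4741 after growth at 26 °C: brr1, cus2, ecm2, gcr3, hsp104, msl1, mud1, mud13, mud2, nam8, prp17, prp18, snu17, snu40, snu66 and upf3. The temperature-sensitive prp4-1a strain and its isogenic wild type SS330 had both been moved from 26 to 37 °C for 2 h, so its values belong to that temperature alone. RNA from dbr1 and from its wild type was a mixture of haploid and diploid cells, both dividing and sporulating, and no growth temperature is given for it. The labels do not say whether separate cultures stand behind a mutant's 2 arrays. P-values rest on a spread estimated for each gene over all 36 arrays, not on a mutant's own 2. Within a measure, a gene's standard error is thus the same in every strain with 2 arrays. This spread may be technical, and the number of arrays limits the precision.

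Actin filaments grow by adding subunits at their ends, and yeast uses them as cortical patches, where membrane is taken up, and as cables, along which cargo moves to the bud. Profilin binds actin monomers, the Arp2/3 complex starts branched filaments, fimbrin bundles filaments and cofilin severs them. Most yeast genes have no intron; these 5 have one, which the spliceosome removes in 2 chemical steps, and the excised lariat is then opened by the debranching enzyme Dbr1 and degraded.

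The first 3 neighbouring probes of each gene were read as a splice-junction, an intron and an exon probe, roles that are likely from their order and from how introns behave on these arrays but are not stated in the annotation. All values are log2 ratios of mutant to wild type. Subtracting a gene's exon probe from its intron probe gives the intron index, which is positive where the mutant has more intron signal per exon signal, and subtracting it from the junction probe gives the junction index. Where a pair of array values is given, the array with the mutant in channel 2 comes first. An estimate is the limma coefficient with its standard error, and a gene was called higher or lower at an adjusted p under 0.05 (Benjamini-Hochberg over all introns or genes of the array within a mutant). Beside the count of called members stands the percentage of all introns or genes called the same way.

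The ratio was read as channel 2 over channel 1, which is likely but not stated. On that reading the exon value of the deleted MUD1 in mud1 was −2.49 and −2.63, and that of STO1, the gene deleted in gcr3, was −5.81 and −5.37 in that strain. With the mutant in channel 2, 4 of 153 pairs of arrays correlated below −0.3 over all probes: prp4-1a with cus2 (−0.40), hsp104 (−0.43) and nam8 (−0.36), and hsp104 with snu17 (−0.36). The same pairs gave 0.55, 0.29, 0.40 and 0.31 with the mutant in channel 1. With the sign turned, all 42 higher calls of the intron index below would be lower. Between 2127 and 2792 of 2896 named spots were usable on an array. The median SD between the arrays of prp4-1a was 2.11 times the median over mutants for the intron index. It was 4.67 times for the junction index and 1.47 times for the exon value.

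All 5 genes gave more intron signal per exon signal than wild type in prp4-1a, brr1, msl1 and snu66. Prp4 and Snu66 are proteins of the U4/U6.U5 tri-snRNP, Msl1 is a U2 snRNP protein and Brr1 acts in snRNP assembly. The intron index was higher in 5 of 5 genes in prp4-1a, where 95.5% of all introns were higher. It was higher in 5 of 5 in brr1 against 93.2%, in 5 of 5 in msl1 against 93.2% and in 5 of 5 in snu66 against 90.9%. These shares of all introns are so high that 5 of 5 is no result about actin genes. In snu17, which lacks a U2-associated protein, it was higher in 4 of 5, all but SAC6, against 92.2%.

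In 9 further strains some of the 5 introns were called and others not. Prp18 and Prp17 act in the second chemical step of splicing. In prp18 the index of COF1, ARP2 and PFY1 was higher, 3 of the 4 measured genes against 73.7% of all introns, and in prp17 that of COF1 was, 1 of 5 against 29.7%. In ecm2, COF1 was higher, 1 of 5, while 3.69% of all introns were. Gcr3 and Mud13 are the subunits of the nuclear cap-binding complex. COF1 and PFY1 were higher in gcr3, 2 of 5 against 64.3%, and in mud13, 2 of 5 against 48.9%.

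Mud2 and Mud1 act early in intron recognition, the latter as part of the U1 snRNP. In mud2, PFY1 and SAC6 were higher, 2 of 5 against 41.6%. In mud1, ARP2, PFY1 and SAC6 were higher, 3 of 5 against 23.7%. In upf3, which lacks a factor of nonsense-mediated decay, COF1 and PFY1 were higher, 2 of 4 measured against 35.0%. In dbr1 it was ARP2 and PFY1, 2 of 5, while 74.8% of all introns were higher. None of the 5 was called in nam8 (0 of 5 against 4.50%), cus2 (against 0%), hsp104 (against 0%) or snu40 (against 0%), and none reached an unadjusted p under 0.05 in these 4 strains by limma. Over the 88 measured values, 42 were higher and 0 lower, with 44 higher and 0 lower at an unadjusted p under 0.05 by limma. The shares of all introns stand with each strain, and none was computed over strains for this total.

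**Figure D1:**
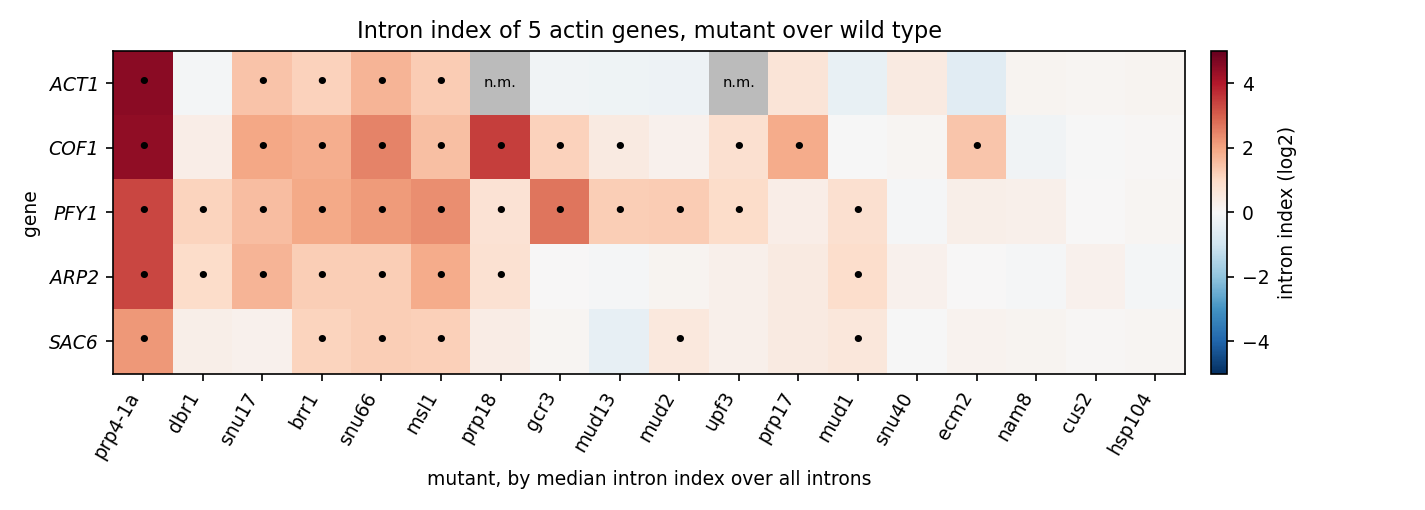
Intron index (log2, mutant over wild type) of the 5 genes, in rows, in the 18 mutants, in columns. Colour gives the estimate, a dot marks a value that was higher at an adjusted p under 0.05, and n.m. marks ACT1 in prp18 and upf3, where its intron was not measured. PFY1 has dots in 12 of 18 mutants, COF1 in 11, ARP2 in 8, SAC6 in 6 and ACT1 in 5 of 16.

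ACT1, the actin gene, rose in 5 of the 16 strains in which its intron was measured, and by far the most in prp4-1a. Its index was 4.42 and 4.56 on the arrays of prp4-1a (4.49 ± 0.23, SE, 2 arrays, a 22.5-fold rise of intron over exon signal, limma adjusted p = 7.49e-13). In snu66 it was 2.13 and 1.24 (1.68 ± 0.23), in snu17 1.20 and 1.65 (1.43 ± 0.23) and in msl1 1.28 and 1.22 (1.25 ± 0.23). In brr1 a single array gave 1.25, and the estimate corrected for the dye term was 1.14 ± 0.34 (adjusted p = 0.00417). The arrays of each of these 5 strains lay above every array of the strains without a call, whose highest value was 0.77 in prp17. The 11 estimates without a call ran from −0.58 in ecm2 to 0.66 in prp17. The ACT1 intron probe was faint, with 68 of 144 spots usable and a value on 25 of 36 arrays, and 7 mutants have the index from 1 array.

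COF1, the gene of the filament-severing protein, rose in 11 strains and stood at the top of all introns in prp18. In prp18 its intron probe was 3.78 and 3.71, and its index 3.29 and 3.61 (3.45 ± 0.17, a 10.9-fold rise, limma adjusted p = 5.69e-15), which ranked 1 among 213 introns. In prp4-1a the index was 4.86 and 4.01 (4.44 ± 0.17, adjusted p = 2.3e-18). Both arrays of each strain were far above those of hsp104, which lacks a chaperone that dissolves protein aggregates, at −0.08 and 0.22.

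In prp17 the COF1 index was 1.77 and 1.92 (1.84 ± 0.17, a 3.59-fold rise, adjusted p = 4.25e-09) and ranked 2 of 222. In ecm2 it was 1.46 and 1.28 (1.37 ± 0.17, a 2.59-fold rise, adjusted p = 2.33e-06) and ranked 2 of 217. Ecm2 is a protein of the active spliceosome, and in this strain the other 4 genes lay between −0.58 and 0.28 with no call. In snu66 the COF1 index was 2.44 and 2.50 (2.47 ± 0.17), rank 5 of 219.

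COF1 also rose in snu17 (1.93 ± 0.17), brr1 (1.83 ± 0.17), msl1 (1.49 ± 0.17), gcr3 (1.17 ± 0.17) and upf3 (0.81 ± 0.17). In mud13 its arrays stood apart, at 0.77 and 0.15 (0.46 ± 0.17, adjusted p = 0.0305). This call was lost without the first array, when the estimate was 0.08 (adjusted p = 0.835), and that in upf3 without the second, at 0.73 (adjusted p = 0.0894). The 7 estimates without a call ran from −0.19 in nam8 to 0.31 in dbr1. Its intron probe had 136 of 144 spots usable and every array gave a value.

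PFY1, the profilin gene, was called in the most strains, and among the 5 it had the highest index in both cap-binding strains. In gcr3 its intron probe was 1.45 and 1.61 while its exon value was −1.01 and −1.28, so the index was 2.46 and 2.89 (2.67 ± 0.19, a 6.38-fold rise, limma adjusted p = 2e-11), rank 4 of 221. In mud13 the index was 1.11 and 1.35 (1.23 ± 0.19, adjusted p = 7.09e-06). Both arrays of both strains lay above both arrays of ACT1, ARP2 and SAC6 in the same strains.

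In prp4-1a PFY1 had an index of 3.37 and 3.32 (3.34 ± 0.19), close to the median of all introns in that strain, 3.34. In msl1 a single array gave 2.49 (2.33 ± 0.27, rank 2 of 220). In snu66 the values were 2.33 and 1.94 (2.13 ± 0.19), in brr1 1.82 and 1.99 (1.91 ± 0.19) and in snu17 1.68 and 1.40 (1.54 ± 0.19). Smaller rises were measured in mud2, at 1.13 and 1.44 (1.28 ± 0.19), in dbr1, at 0.76 and 1.49 (1.12 ± 0.19), in upf3, at 0.76 and 1.11 (0.94 ± 0.19), and in mud1, at 0.63 and 0.97 (0.80 ± 0.19). In prp18 the arrays gave 0.12 and 1.34 (0.73 ± 0.19, adjusted p = 0.00122), the widest gap of any PFY1 pair. The call in prp18 was lost without the second array, at 0.25 (adjusted p = 0.371), and that in mud1 without the first, at 0.81 (adjusted p = 0.0958), or the second, at 0.79 (adjusted p = 0.0739).

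ARP2, which encodes a core subunit of the filament-branching complex, rose in 8 strains. Its index was 3.74 and 2.94 in prp4-1a (3.34 ± 0.21, limma adjusted p = 3.37e-14), 1.44 and 2.28 in msl1 (1.86 ± 0.21) and 1.53 and 1.89 in snu17 (1.71 ± 0.21). It was 1.25 ± 0.21 in brr1 and 1.24 ± 0.21 in snu66. In mud1, where the median index of all introns was 0.21, the ARP2 index was 0.73 and 1.01 (0.87 ± 0.21, adjusted p = 0.00446), rank 12 of 219. In dbr1 it was 0.69 and 1.11 (0.90 ± 0.21) and in prp18 0.50 and 1.05 (0.78 ± 0.21). The call in mud1 was lost without the first array, at 0.83 (adjusted p = 0.134), or the second, at 0.91 (adjusted p = 0.0704), and that in prp18 without the second, at 0.67 (adjusted p = 0.0686). The 10 estimates without a call ran from −0.08 to 0.45.

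SAC6, the fimbrin gene, had the smallest response of the 5 in prp4-1a. Its index there was 1.87 and 2.46 (2.16 ± 0.21, a 4.48-fold rise, limma adjusted p = 3.51e-10), rank 169 of 222. It was 1.53 and 0.84 in msl1 (1.18 ± 0.21), 0.93 and 1.32 in brr1 (1.13 ± 0.21) and 1.18 on the only array that measured it in snu66 (1.22 ± 0.30). In snu17 it was 0.04 and 0.41, and the estimate of 0.22 ranked 209 of 218. In mud13 it was −0.19 and −0.60 (estimate −0.40, adjusted p = 0.121), rank 219 of 221. The calls in mud1, at 0.82 and 0.31 (0.56 ± 0.21, adjusted p = 0.0482), and mud2, at 0.48 and 0.55 (0.51 ± 0.21, adjusted p = 0.0487), lay at the threshold. In mud1 the estimate was 0.34 (adjusted p = 0.558) without the first array and 0.79 (adjusted p = 0.0965) without the second. In mud2 these values were 0.60 (adjusted p = 0.161) and 0.43 (adjusted p = 0.338).

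**Figure D2:**
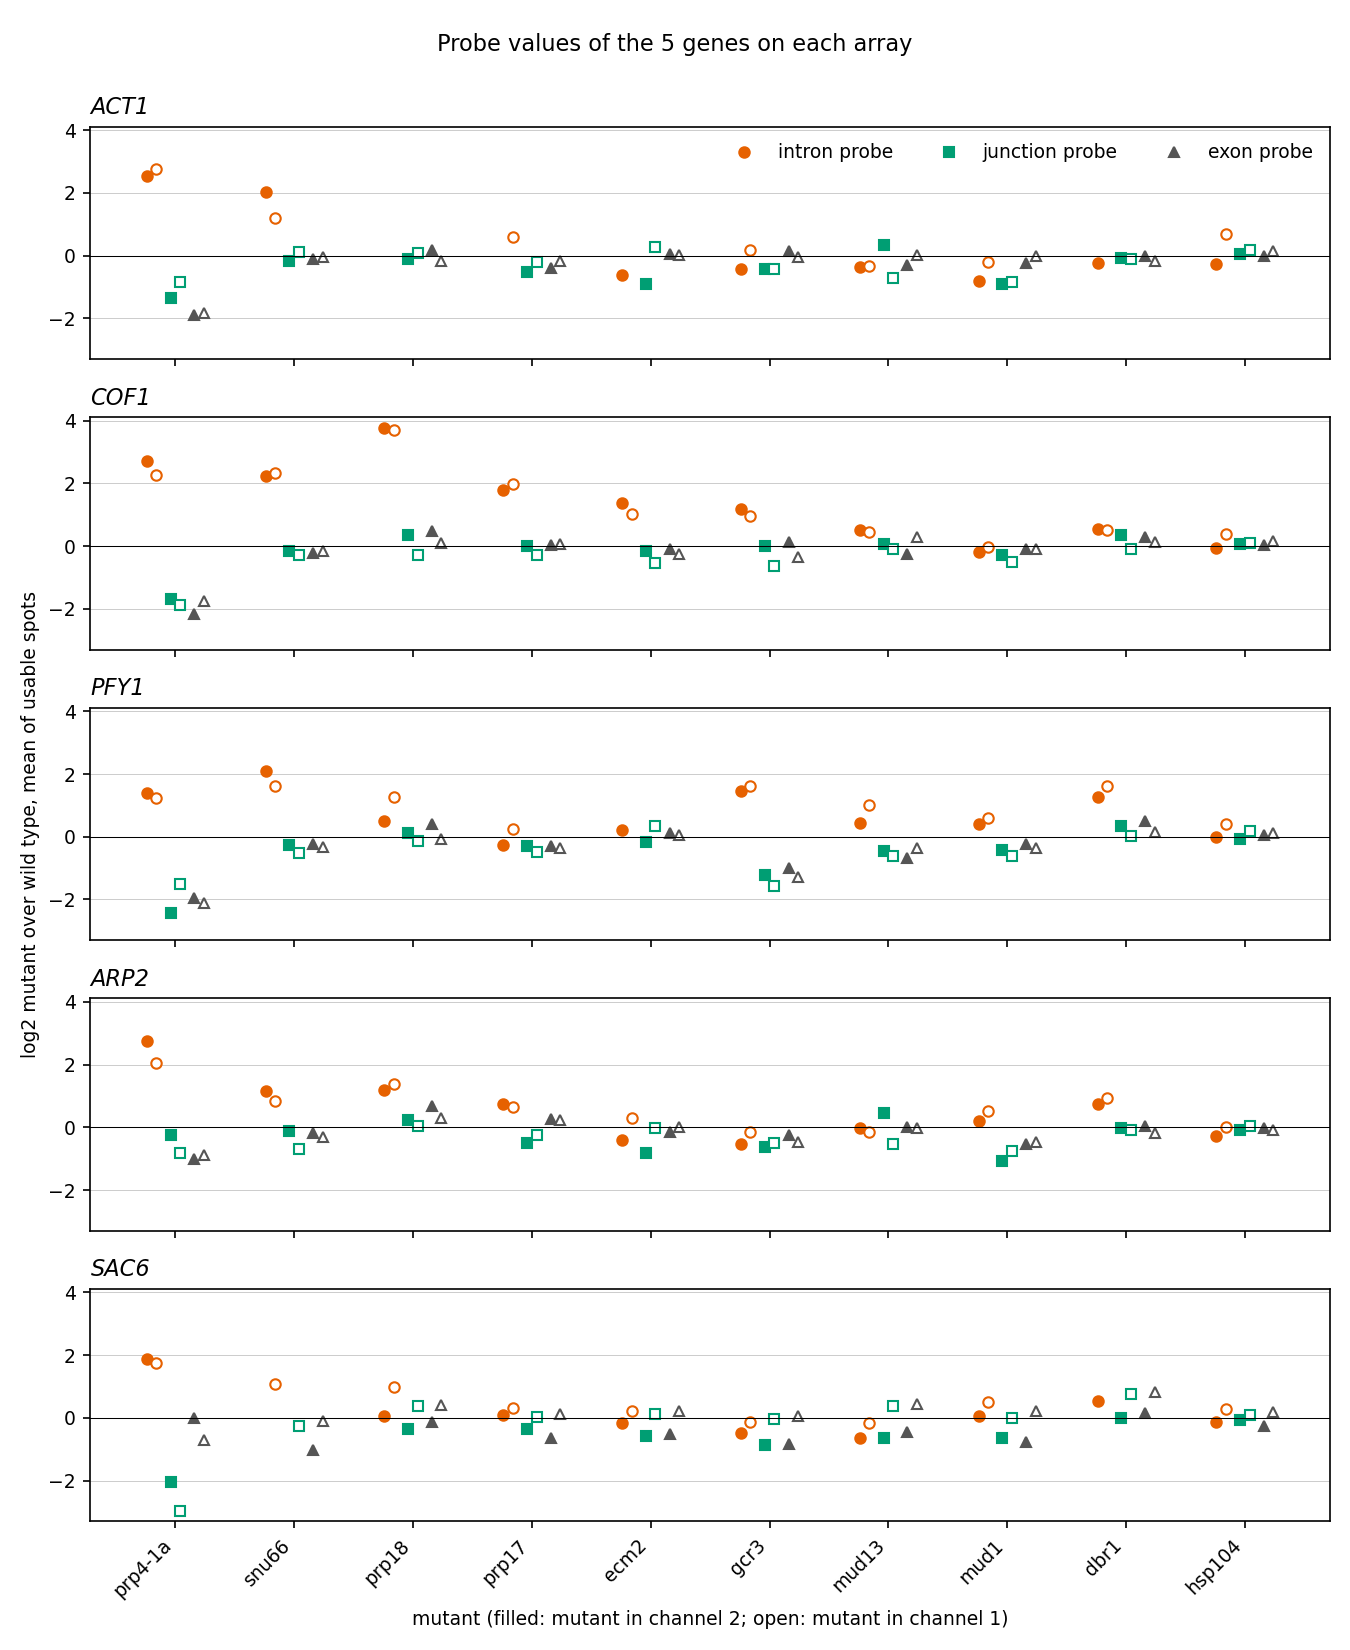
Log2 ratio (mutant over wild type) of the intron, junction and exon probes of the 5 genes on each array of 10 mutants. Filled points are arrays with the mutant in channel 2 and open points those with it in channel 1; in prp18 the COF1 intron probe stands at 3.78 and 3.71, and in gcr3 the PFY1 intron probe stands at 1.45 and 1.61 with its exon probe at −1.01 and −1.28.

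Because most introns moved in several strains, each index was also set against the median intron of the same array. Of the 88 values, 21 were then higher and 13 lower than the median intron. Ribosomal protein genes hold many of the introns on the array, and against the median of the introns outside them 20 values were higher and 9 lower, with 25 calls kept, 9 lost and 4 gained. The changes, in dbr1, mud1, mud13, prp4-1a and snu17, are given with each strain. Against the median of all introns, COF1 was higher in 9 strains and PFY1 in 8, each lower in 1, while SAC6 was higher in 0 and lower in 5. ACT1 was higher in 1 of 16 and lower in 3, and ARP2 was higher in 3 and lower in 3. No share of all introns was computed over strains, so these counts do not show whether a member was called more often than other introns.

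COF1 stood furthest from the median intron in prp18, by 2.60 ± 0.13 (limma adjusted p = 7.05e-14), the only one of 4 measured members higher there, against 19.7% of all introns. It was the only one of 5 higher in prp17 (1.58 ± 0.13, against 17.6%) and in ecm2 (1.33 ± 0.13, against 2.30%). In snu66, COF1 (1.24 ± 0.13) and PFY1 (0.90 ± 0.16) were higher, against 25.1%. The same 2 genes were higher in brr1 (0.56 and 0.65, against 20.0%) and upf3 (0.48 and 0.60, against 18.4%).

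The relative index parted the genes within gcr3 and mud13. In gcr3, PFY1 (1.93 ± 0.16) and COF1 (0.43 ± 0.13) were higher than the median intron, against 33.0% of all introns, and ACT1 (−0.91 ± 0.22), ARP2 (−0.73 ± 0.15) and SAC6 (−0.65 ± 0.26) were lower, against 29.4%. In mud13, PFY1 (0.80 ± 0.16) was higher, against 24.9%, and ACT1 (−0.64), ARP2 (−0.50) and SAC6 (−0.82) were lower, against 17.6%. Against introns outside ribosomal protein genes the mud13 calls of ACT1 (−0.47, adjusted p = 0.0779) and ARP2 (−0.34, adjusted p = 0.120) were lost. PFY1 was also higher in mud2 (0.87 ± 0.16, against 19.5%), together with ARP2 in msl1 (1.09 and 0.67, against 16.4%) and together with ARP2 in mud1 (0.61 and 0.68, against 11.4%). Against introns outside ribosomal protein genes neither was called in mud1 (0.36 and 0.42, adjusted p = 0.0874 and 0.0591), and ACT1 (−0.82) and COF1 (−0.47) were lower there, 2 of 5 against 28.8%.

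In dbr1 all 5 were lower than the median intron, against 41.0% of all introns. ACT1 lay at −1.27 and SAC6 at −0.91, each on 1 array, COF1 at −1.20, ARP2 at −0.61 and PFY1 at −0.39. The median of the intron index in dbr1 was 1.45 over all introns and 0.31 over the 5. Against introns outside ribosomal protein genes only ACT1 (−0.75) and COF1 (−0.53) were lower, 2 of 5 against 24.8%. ARP2 (0.06, adjusted p = 0.769) and PFY1 (0.28, adjusted p = 0.116) then had the opposite sign, and SAC6 lay at −0.36 (adjusted p = 0.269).

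In prp4-1a, ACT1 (1.17) and COF1 (1.11) were higher, against 41.0%, and SAC6 (−1.16) was lower, against 43.7%. Against introns outside ribosomal protein genes the SAC6 call was lost (−0.25, adjusted p = 0.289), and ARP2 (0.93) and PFY1 (0.93) joined ACT1 (2.08) and COF1 (2.03), 4 of 5 higher against 59.0%. In snu17, COF1 (0.60) and ARP2 (0.38) were higher than the median of all introns, against 15.6%, and SAC6 (−1.10) was lower, against 22.0%. Of these, the ARP2 call was lost against introns outside ribosomal protein genes (0.39, adjusted p = 0.0872).

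**Figure D3:**
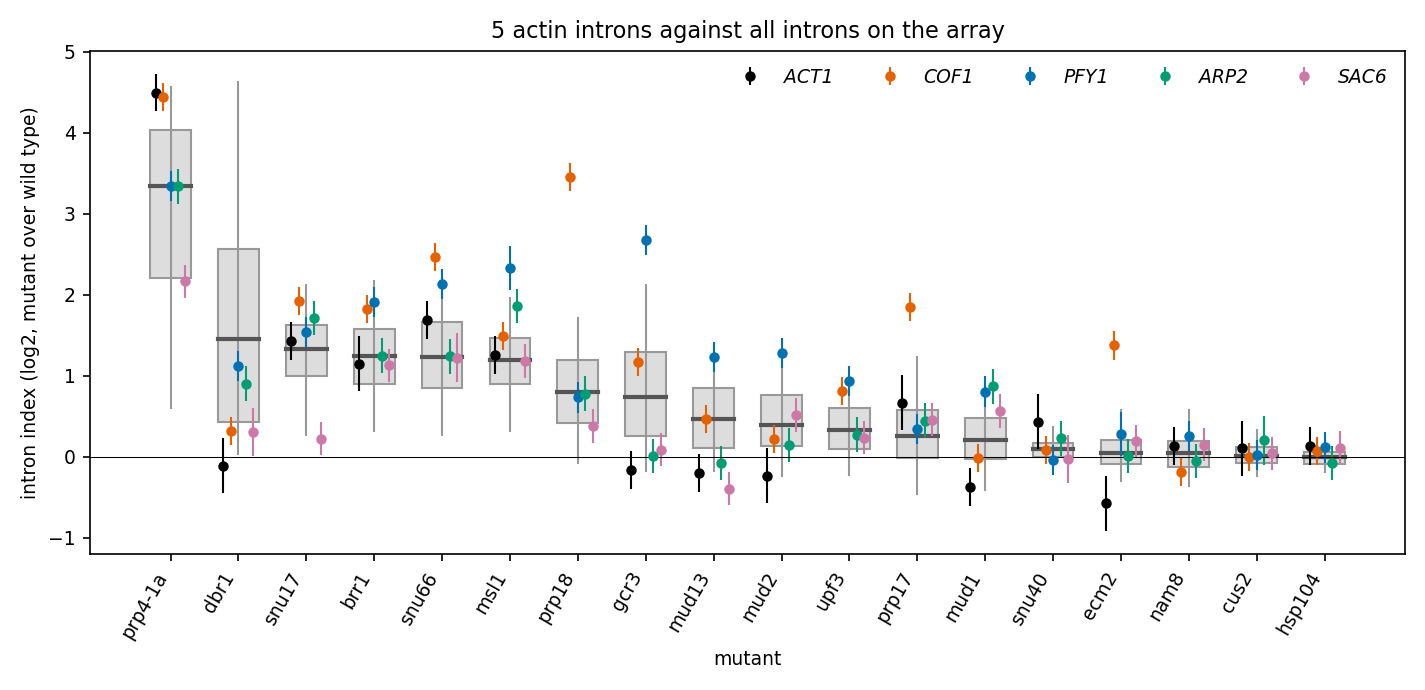
Intron index (log2) of the 5 genes in each mutant, as points with the standard error, over the distribution of all introns, drawn as a grey box for the quartiles and a line from the 5th to the 95th percentile. COF1 lies above the line in prp18 (3.45), prp17 (1.84) and ecm2 (1.37), PFY1 does in gcr3 (2.67), and in dbr1 the 5 points lie below the median of all introns, 1.45.

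The 5 introns were then compared with each other on the same arrays, in 10 pairs and 172 measured differences. Of these, 58 were called, in 14 strains, with 8 of 10 in prp4-1a and 7 of 10 in both gcr3 and mud13. No share of all introns was computed within a strain, so the counts by strain are no result about actin genes. The shares below are over all strains. Set against ARP2, 4 of 16 ACT1 values differed, while 34.5% of the values of all introns did. Set against COF1, 16 of 34 member values differed, against 51.1%, against PFY1 24 of 52, against 45.1%, and against SAC6 14 of 70, against 18.8%. Differences among the members were thus called about as often as, or less often than, differences between a member and any intron, without a test of the shares.

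In prp18 the index of COF1 was above that of ARP2, with ARP2 minus COF1 at −2.67 ± 0.17, and above that of PFY1, with COF1 minus PFY1 at 2.72. In gcr3 PFY1 was the highest, with COF1 minus PFY1 at −1.50, ARP2 minus PFY1 at −2.67 and ACT1 minus PFY1 at −2.84. With the variance of each difference alone, in place of the variance shared over introns, the adjusted p-values of these 5 differences were 8.49e-11, 3.91e-07, 6.93e-06, 1.11e-07 and 6.95e-06. The order of COF1 and PFY1 was opposite in prp18 and gcr3. COF1 was called higher than PFY1 in prp4-1a, ecm2, prp17 and prp18 and lower in 6 other strains. With its own variance the call in ecm2 was lost (1.23, adjusted p = 0.119).

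Over strains, prp4-1a had the highest index for all 5 genes, and in each it differed from the next strain. The median of all introns was also highest there, at 3.34, ahead of dbr1 at 1.45. The share of all introns that were highest in prp4-1a was not computed, so this order is no result about actin genes. The strains next in order for the 5 genes also differ from prp4-1a in growth temperature and wild type. The gap was 2.81 for ACT1 (to snu66, adjusted p = 3.31e-07), 1.48 for ARP2 (to msl1, adjusted p = 7.19e-05) and 0.98 for COF1 (to prp18, adjusted p = 0.000548). It was 0.67 for PFY1 (to gcr3, adjusted p = 0.0201) and 0.94 for SAC6 (to snu66, adjusted p = 0.0190). For COF1, prp18 differed from the next strain, snu66, by 0.98 (adjusted p = 0.00235). No other neighbours in the 5 orders differed beyond the threshold.

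Strains mutated in partners of a complex or step were compared directly. Between the second-step strains, the COF1 index was lower in prp17 than in prp18 by 1.61 ± 0.25 (limma adjusted p = 4.18e-05), 1 of the 4 measured members against 33.3% of all introns. ARP2 (−0.33), PFY1 (−0.39) and SAC6 (0.08) were not called. Between the cap-binding strains, PFY1 was higher in gcr3 than in mud13 by 1.44 ± 0.26 (adjusted p = 0.000461), 1 of 5 against 11.4%, and COF1 differed by 0.71 (adjusted p = 0.0585).

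Between the U1 snRNP strains mud1 and nam8, 0 of 5 members differed, against 2.28% of all introns, with ARP2 at 0.92 (adjusted p = 0.117) as the largest difference. Between the U2 strains msl1 and cus2, 5 of 5 differed, against 85.8%, from 1.14 for SAC6 to 2.31 for PFY1. Between prp4-1a and snu66, which also differ in growth temperature and wild type, 5 of 5 differed, against 85.8%. These gaps were 2.81 for ACT1, 2.10 for ARP2, 1.97 for COF1, 1.21 for PFY1 and 0.94 for SAC6.

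In the 5 genes, splice-junction signal per exon signal was called far less often than intron signal. Of 90 values, 1 was higher and 2 lower (3 and 9 at an unadjusted p under 0.05 by limma). No share of all introns was computed over strains for these totals, so they are no result about actin genes. In prp4-1a the ACT1 junction index was 0.55 and 0.96 (0.75 ± 0.24, adjusted p = 0.00868), 1 of 5 higher against 16.2% of all introns. The SAC6 junction index was −2.03 and −2.25 there (−2.14 ± 0.12, adjusted p = 3.01e-12), 1 of 5 lower against 55.0%, and ranked 215 of 222. In prp17 the ARP2 junction index was −0.74 and −0.48 (−0.61 ± 0.19, adjusted p = 0.0273), 1 of 5 lower against 18.4%. Set against the median junction index of the array, 4 values were higher and 1 lower. In prp4-1a ACT1 (1.12), ARP2 (0.78), COF1 (0.54) and PFY1 (0.43) were then higher, 4 of 5 against 34.2% of all introns. SAC6 (−1.77) was lower there, 1 of 5 against 32.4%. The arrays of PFY1 in prp4-1a differed in sign, at −0.21 and 1.08. The ARP2 call in prp17 was lost on that scale (−0.45, adjusted p = 0.0589).

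The uncentred junction call of ACT1 in prp4-1a was lost without the second array (0.66). That of ARP2 in prp17 was lost without the first (−0.53) or the second (−0.69). Other junction values gained a call when an array was left out. In prp4-1a these were ARP2 (0.84) and COF1 (0.36) without the second array and PFY1 (0.55) without the first. The others were ACT1 in mud13 (−0.89) and PFY1 in snu17 (0.80), each without the first array.

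The probes behind these indices show where the changes lie. In prp4-1a the intron probe rose in 5 of 5 genes, against 92.4% of all intron probes, and the junction probe fell in 5 of 5, against 82.0% of all junction probes. The SAC6 junction probe was −2.04 and −2.96 while its exon probe was −0.01 and −0.71. The ACT1 junction probe was −1.35 and −0.85, above its own exon probe at −1.90 and −1.82. On both arrays the junction probe of SAC6 was thus below its exon probe and that of ACT1 above its own.

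In prp18 the intron probe rose in 4 of the 4 measured genes, against 74.3%, and none of the junction probes of the 5 genes was called. In gcr3 the junction probe fell for ARP2 (−0.56), COF1 (−0.31) and PFY1 (−1.40), 3 of 5 against 54.5%. In dbr1 the intron probe rose for ARP2 (0.83), COF1 (0.52), PFY1 (1.45) and SAC6 (0.72, on 1 array), 4 of 5 against 78.7%, while that of ACT1 read −0.25 on its 1 array.

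Of the 90 exon values, which stand for the transcript as a whole, 25 were lower and 2 higher than in wild type (31 and 5 at an unadjusted p under 0.05 by limma). Set against the median exon value of the array, 18 were lower and 13 higher, so the excess of lower calls depends on the scaling. Of the 27 uncentred calls, 16 were kept on that scale, 10 were lost and 1, ARP2 in prp4-1a, turned. For these totals no share of all genes was computed over strains, so they are no result about actin genes. In prp4-1a, 4 of 5 fell, against 74.6% of all genes. PFY1 was −1.96 and −2.10 (−2.03 ± 0.11, adjusted p = 3.26e-16), COF1 −2.15 and −1.74 (−1.94 ± 0.13), ACT1 −1.90 and −1.82 (−1.86 ± 0.10) and ARP2 −1.0 and −0.88 (−0.94 ± 0.11). SAC6 was not called, at −0.01 and −0.71 (−0.36, adjusted p = 0.0693), and without the first array its estimate was −1.01 and called (adjusted p = 7.83e-06). Its exon value was higher with the mutant in channel 1 in 17 of 18 strains, by a median of 0.611. The exception was prp4-1a itself, where the gap between the arrays ran the other way. The fit holds the channel difference as its own term, common to all strains.

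The median exon value of prp4-1a was −1.11, and against the median of each array the genes parted. ARP2 (0.26) and SAC6 (0.84) were then higher, 2 of 5 against 48.2% of all genes, and ACT1 (−0.66), COF1 (−0.75) and PFY1 (−0.83) lower, 3 of 5 against 46.9%. The direction of ARP2 and SAC6 in prp4-1a thus depends on the centring of the arrays.

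Outside prp4-1a the largest fall in exon value was that of PFY1 in gcr3, at −1.01 and −1.28 (−1.15 ± 0.11, adjusted p = 7.67e-10), rank 222 of 228. With ARP2 it made 2 of 5 lower, against 49.6%. In brr1, 4 of 5 were lower, all but ACT1, against 40.5%, with PFY1 at −0.69 and −0.70 and SAC6 at −0.79 and −0.72. In snu17 all but SAC6 were lower, 4 of 5 against 34.2%, with PFY1 at −0.73 and −0.75. In msl1 ARP2 (−0.60 and −0.62), PFY1 (−0.61 and −0.96) and COF1 (−0.25 and −0.37) were lower, 3 of 5 against 40.7%.

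PFY1 was the 1 of 5 lower in mud2 (−0.52 and −0.66, against 13.7%) and in mud13 (−0.68 and −0.35, against 43.9%), ARP2 in mud1 (−0.54 and −0.47, against 7.96%) and SAC6 in snu66 (−1.03 and −0.08, against 12.3%). ACT1 and PFY1 were lower in prp17, 2 of 5 against 41.0%, and ACT1 and ARP2 in upf3, 2 of 5 against 21.2%, none by more than 0.37 in estimate. In prp18, ARP2 (0.67 and 0.31) and COF1 (0.49 and 0.10) were higher, 2 of 5 against 19.1%. Set against the array median, ARP2 (0.69), COF1 (0.49), PFY1 (0.36) and ACT1 (0.20) were higher in prp18, 4 of 5 against 32.0%.

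Against the array median, PFY1 stayed lower in gcr3 (−0.86, 1 of 5 against 25.0%), snu17 (−0.48, 1 of 5 against 10.7%), mud2 (−0.49, 1 of 5 against 7.49%) and mud13 (−0.25, 1 of 5 against 15.8%). It was lower with ARP2 in msl1 (−0.53 and −0.35, 2 of 5 against 9.29%) and mud1 (−0.30 and −0.51, 2 of 5 against 13.7%), and with SAC6 in snu66 (−0.30 and −0.58, 2 of 5 against 16.3%). In brr1 PFY1 (−0.49), ARP2 (−0.33) and SAC6 (−0.55) were lower, 3 of 5 against 24.2%.

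The calls lost on that scale were ACT1 (−0.04), ARP2 (−0.16) and COF1 (−0.20) in snu17, ACT1 (−0.02) and PFY1 (−0.08) in prp17, ACT1 (−0.14) and ARP2 (−0.21) in upf3, ARP2 in gcr3 (−0.06), and COF1 in brr1 (−0.20) and msl1 (−0.05). ARP2 and COF1 were higher than the array median in prp17 (0.51 and 0.30, 2 of 5 against 21.1%) and in mud13 (0.25 and 0.28, 2 of 5 against 14.5%). ACT1 was higher in gcr3 (0.34, 1 of 5 against 24.6%) and mud2 (0.23, 1 of 5 against 2.20%). In ecm2 COF1 was lower (−0.35, 1 of 5 against 11.9%), and in dbr1 ACT1 was lower (−0.21, 1 of 5 against 5.26%) and PFY1 higher (0.23, 1 of 5 against 3.51%).

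Of the 27 uncentred calls on exon values, 11 were kept with either array left out and 16 were lost. Those kept were the 4 calls in prp4-1a, those of PFY1 in gcr3, brr1, msl1, snu17 and mud2, and those of ARP2 in msl1 and prp18. Without the first array the values were −0.34 for COF1 in brr1, −0.38 for ARP2 in gcr3, −0.35 for COF1 in msl1, −0.39 for ARP2 in mud1, −0.27 for PFY1 in mud13 and 0.11 for COF1 in prp18. They were −0.16 for ACT1 and −0.30 for PFY1 in prp17, −0.31 for ACT1 and −0.28 for ARP2 in snu17, −0.33 for SAC6 in snu66, and −0.30 for ACT1 and −0.41 for ARP2 in upf3. None of these was called. Without the second array none of the following was called: ARP2 (−0.34), COF1 (−0.46) and SAC6 (−0.51) in brr1, ARP2 in gcr3 (−0.31) and COF1 in msl1 (−0.27). The same held for PFY1 in prp17 (−0.37), ACT1 (−0.29) and COF1 (−0.33) in snu17, SAC6 in snu66 (−0.78), and ACT1 (−0.30) and ARP2 (−0.34) in upf3.

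**Figure D4:**
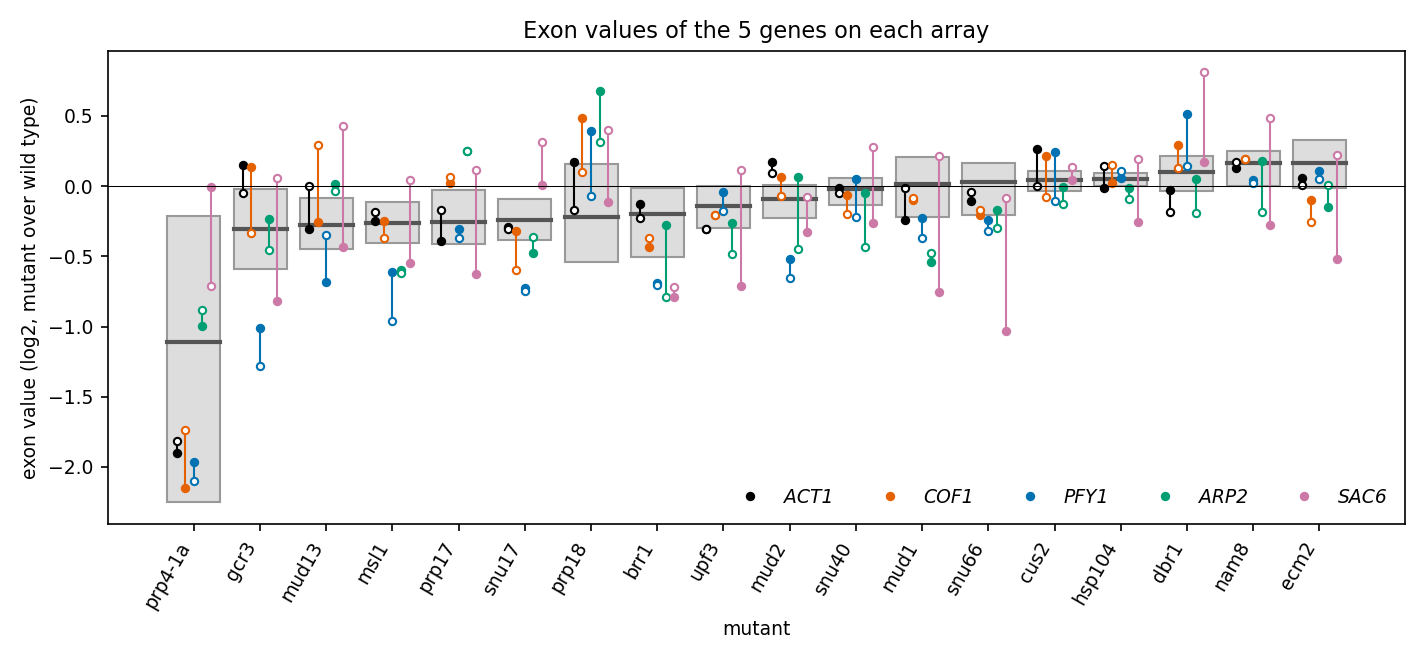
Exon value (log2 ratio, mutant over wild type) of the 5 genes on each array of the 18 mutants, filled with the mutant in channel 2 and open in channel 1, over a grey box for the quartiles and the median of all exon values. In prp4-1a PFY1, COF1 and ACT1 lie between −2.15 and −1.74 and SAC6 at −0.01 and −0.71, and in gcr3 PFY1 lies at −1.01 and −1.28.

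The array carries 4 further ACT1 probes, whose place in the gene the annotation does not give. Further probe 1 followed the exon probe in prp4-1a, at −2.01 and −1.73. Further probes 2 and 3 rose there like the intron probe, at 2.65 and 2.60 and at 3.23 and 2.57, against 2.53 and 2.75 for the intron probe. Their differences from the intron probe were −0.01 ± 0.31 for probe 2 and 0.26 ± 0.31 for probe 3 (adjusted p = 0.412). Further probe 4 was 1.32 and 1.97.

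In dbr1 the same probes parted. Further probe 3 was 4.05 and 5.47 (4.76 ± 0.18, a 27.1-fold rise, limma adjusted p = 1.57e-18) and further probe 2 was 1.84 and 2.89 (2.37 ± 0.14), while the intron probe read −0.25 on the only array with a value. The difference from the intron probe was 4.21 ± 0.44 for probe 3 and 2.01 ± 0.44 for probe 2, each resting on that 1 array. The low ACT1 intron index in dbr1 thus holds for 1 ACT1 probe, and other ACT1 probes were among those that rose.

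The further probes also give values where the ACT1 intron probe has none. In prp18, probe 2 was 1.04 and 1.13 (1.08 ± 0.14, adjusted p = 3.57e-07) and probe 3 was 1.02 and 1.22 (1.12 ± 0.18, adjusted p = 7.18e-06). In upf3 their estimates were 0.04 and −0.07, with no call. Probes 2 and 3 rose as well in snu66 (1.33 and 1.27), snu17 (0.96 and 0.96), brr1 (0.84 and 0.68) and msl1 (0.72 and 0.77), the 4 deletion strains in which the ACT1 intron index was higher. Probe 2 alone was called in ecm2 (0.67 and 0.41, estimate 0.54). Probe 2 had 140 and probe 3 had 134 of 144 spots usable.

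**Figure D5:**
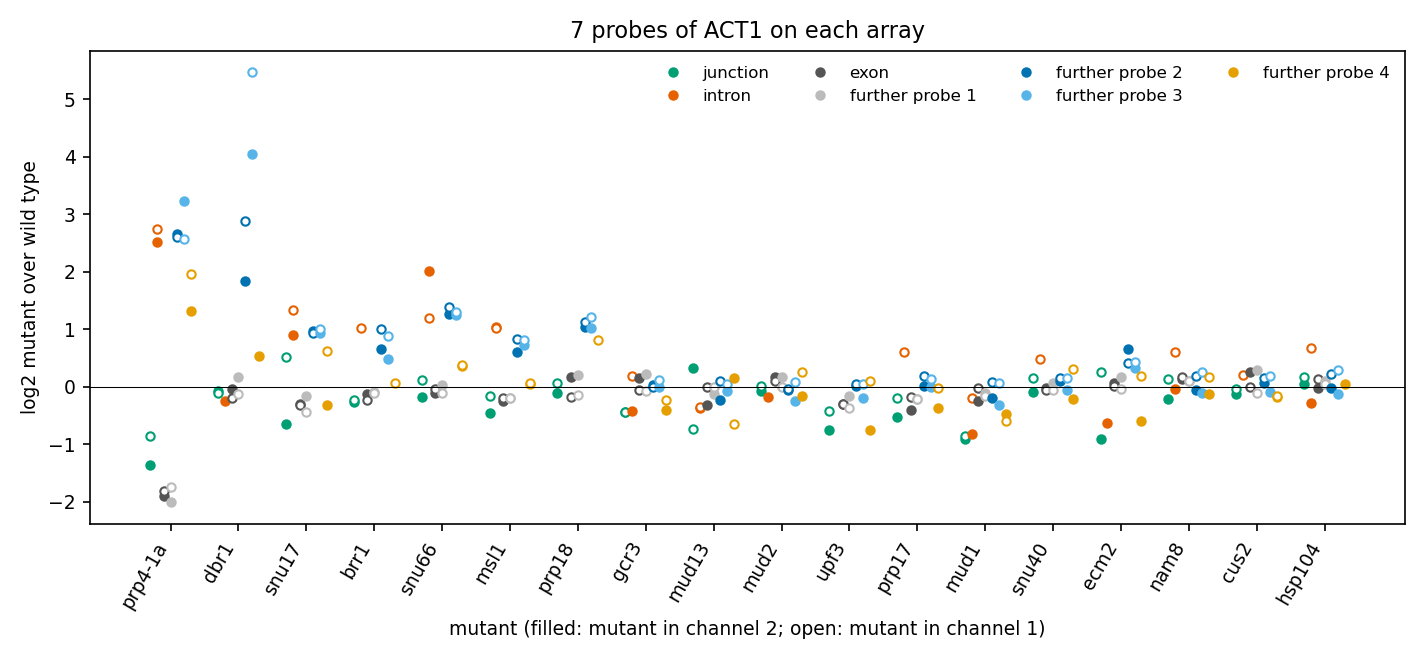
Log2 ratio (mutant over wild type) of the 7 ACT1 probes on each array of the 18 mutants. In dbr1 further probe 3 stands at 4.05 and 5.47 and further probe 2 at 1.84 and 2.89, while the intron probe has 1 value, −0.25.

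Of a longer list of actin genes, 3 besides the 5 are on the array: YSC84 and LSB3, which encode related SH3-domain proteins of actin patches, and GIM5, a subunit of the prefoldin complex that helps fold actin and tubulin. Their intron index was higher in 3 of 3 in prp4-1a, brr1, dbr1, msl1, prp18 and snu66, where 95.5%, 93.2%, 74.8%, 93.2%, 73.7% and 90.9% of all introns were higher, so these counts lie near the background. In dbr1 GIM5 was 4.02 and 4.62 (4.32), LSB3 2.79 and 2.92 (2.86) and YSC84 1.66 and 1.97 (1.81). All were above the highest intron index of a member there, PFY1 at 1.12. Further ACT1 probes 2 and 3, at 2.37 and 4.76 in dbr1, do not enter that index. In ecm2, where COF1 rose, LSB3 (0.29) and GIM5 (0.07) were not called and YSC84 was not measured. In prp17 the 1 called was YSC84, at 1.19 and 0.60 (0.90). Of the 5 introns measured for microtubule genes (TUB1, TUB3, CIN2 and both introns of DYN2), 5 of 5 were higher in prp4-1a, brr1, msl1, snu17 and snu66, where 90.9% to 95.5% of all introns were, 3 of 5 in dbr1 (against 74.8%) and 0 of 5 in ecm2 (against 3.69%).

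As a description of likeness, the intron index of each gene was correlated over mutants with that of every other intron. These points share arrays and wild-type RNA, and prp4-1a stands far from the others. Over all measured mutants ACT1 was most like the second intron of DYN2 (r = 0.96, 16 mutants), ARP2 like ERD2 (r = 0.96, 18 mutants), COF1 like KIN28 (r = 0.92), PFY1 like IST1 (r = 0.95) and SAC6 like YOP1 (r = 0.91). Without prp4-1a and dbr1 these were LSM7 for ACT1 (r = 0.91, 14 mutants), NMD2 for ARP2 (r = 0.93), EFB1 for COF1 (r = 0.90), IST1 for PFY1 (r = 0.95) and PAL2 for SAC6 (r = 0.90, 13 mutants). Among the closest 3 of each gene, the only other member was ACT1, which was the intron ranked 3 for COF1 over all mutants (r = 0.87, 16 mutants).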

How the data were processed

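The values are log2 ratios of the 2 channels, 1 per spot, as the authors deposited them, with the handling of image, background and scale not given in the sources used here. The base was checked with 1562 differences between recurring values of an array. At base 2, 247 of them matched a log ratio of integers no larger than 400 to within 3e-08, while 3 did at base e and 8 at base 10. Exact zeros and blanks were treated as missing, the usable spots of the 4 per probe were averaged, and signs were set so that positive means higher in the mutant. Array medians ran from −0.29 to 0.54, and no centring was added except where stated. All 36 arrays entered 1 limma fit per measure (limma 3.58.1, R 4.3.3) with 1 term per mutant and 1 for the dye, common to all; a value on 1 array is corrected by that term. P-values were adjusted by Benjamini-Hochberg over all introns, genes or probes within a mutant, at a threshold of 0.05. The script was tested on simulated data. Each array has its own slide lot, so slide could not be a block. The members and gene lists were chosen with earlier results of these data known. The named genes are the 5 members, the deleted genes on the array, further genes of the actin list, and the 3 introns most like each member.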

Additional observations from a re-analysis of the deposited data

How the results depend on the processing

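The 42 higher calls of the intron index among the 5 genes became 11 when only introns with a value on all 36 arrays were used, since ACT1, ARP2, PFY1 and SAC6 then drop out, and leaving out 1 array gave 38 to 45 higher and 0 lower calls. Of the 42, the only ones lost without 1 array of their strain were the lost calls given above in mud1, mud2, mud13, prp18 and upf3. The calls of ACT1 in brr1, PFY1 in msl1 and SAC6 in snu66 rest on 1 array, so leaving out an array could not test them. Weighting arrays by their spread made 1 value lower, against 0. With hsp104 in place of wild type as the reference, ARP2 (adjusted p = 0.0502), PFY1 (0.116) and SAC6 (0.396) in mud1, SAC6 in mud2 (0.326) and COF1 in mud13 (0.246) lost their calls. The junction index, with 1 higher and 2 lower calls, gave 1 and 4 both without prp4-1a and without prp4-1a and dbr1, 1 lower at a threshold of 0.01, 0 and 13 with weighted arrays, 0 and 1 against hsp104, and 4 and 1 against the median junction index of the array, an alternative chosen after seeing the data. Leaving out 1 array gave 1 to 3 higher and 1 to 6 lower. Exon values, with 2 higher and 25 lower, gave 1 higher with no dye term, 4 higher without prp4-1a, 1 and 16 at a threshold of 0.01, 1 higher with the median of spots, 6 higher with weighted arrays, 1 and 16 against hsp104, and 13 higher and 18 lower with arrays centred on exon and intronless probes. Leaving out 1 array gave 1 to 4 higher and 21 to 28 lower. Under that centring ARP2 in prp4-1a turned from a lower call to a higher one (0.26). SAC6 in prp4-1a (0.84) and ARP2 in mud13 (0.25) also changed sign and were called higher. Uncentred, these were −0.36 and −0.008 and had no call. The median exon value was −1.11 in prp4-1a and −0.28 in mud13, and what lies behind these medians was not tested. Of the 58 calls between members, 55 were made with no dye term and 53 with the variance of each difference alone, also chosen after seeing the data. The intron index relative to the array median, with 21 higher and 13 lower calls, gave 20 and 9 against introns outside ribosomal protein genes. Each ratio already compares a mutant with wild type on the same array. No further pairing across mutants was possible, because the arrays of a mutant share no culture or batch label with those of other mutants. Signal over background is not in the values, and the faint ACT1 intron probe limits that gene most.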
